A study of Apera spica-venti with 32 samples.

Results

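The response to spraying with pinoxaden that 4 populations of Apera spica-venti, a grass weed of cereal fields, had in common was read from all 32 of 32 RNA libraries of the series. Each of 16 libraries of sprayed leaves belonged to population S1, S2, R1 or R2, and so did each of 16 libraries of untreated leaves. The S populations are susceptible; the R populations resist several herbicides. Sprayed plants received pinoxaden once, at a dose of 45 g active ingredient per ha, and their leaves were frozen 8 h later; untreated plants were not sprayed. All plants grew in a greenhouse, and each of the 8 combinations had 4 biological replicates of 3 plants, so that a library is a pool of plants. The labels record no mock spray, no blank formulation and no harvest time for untreated leaves. Effects of the active ingredient, of the other parts of the product, of being sprayed and of the hour of harvest therefore cannot be told apart. A feature here is an open reading frame on an assembled transcript contig. The populations were weighted equally in the main effect of spraying, and a feature was said to rise or fall when its adjusted p was under 0.05. A shared feature passed that test and had the same sign in each of the 4 populations. This definition fixes the sign of the population values, so those values are given as a description of shared features.

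Pinoxaden inhibits acetyl-CoA carboxylase, which makes the malonyl-CoA that fatty acid synthesis extends, and it acts in grasses on the plastid form of the enzyme. Plant cells under chemical or heat stress use heat stress transcription factors to switch on chaperones, which refold proteins or hand them to ubiquitin ligases and the proteasome. Many plants oxidise herbicides with cytochromes P450, join them to glutathione or sugars with glutathione transferases and UDP-glycosyltransferases, and move the products with ABC transporters.

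Totals ran from 28605611 to 38956981 counts in sprayed libraries and from 26213780 to 46062806 in untreated libraries. The TMM scaling factor, which corrects a total for a few very abundant features, had a median of 1.06 in sprayed and 0.923 in untreated libraries (adjusted p = 0.0117 over 10 measures, two-sided permutation test within populations). Without that factor the median log2 fold change of all features was 0.14, against -0.02 with it, and 6118 features rose and 1209 fell. Every direction below is on the TMM scale; where the side with more calls in a list changed or was lost without the factor, the counts with library totals alone are given beside it. Features of the leaf mesophyll marker list held 45.5% to 49.9% of counts in sprayed and 43.8% to 50.1% in untreated libraries (adjusted p = 0.140, the same test). In bulk leaves fewer cells of a type and less RNA per cell cannot be told apart.

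Spraying changed 6920 of 25036 tested features, or 27.6%. Of these 3662 rose (14.6%) and 3258 fell (13.0%). The rise was steeper than the fall, with 1206 risen and 301 fallen features past an absolute log2 fold change of 1. Shared features numbered 5803, of which 3157 rose (12.6% of tested features) and 2646 fell (10.6%). They made up 83.9% of the called features, while 18.3% of the 18116 features that were not called had 1 sign in all populations. The call was made on the mean of the same population contrasts, which favours a common sign among called features. The gap between these shares is therefore a description and cannot show that the response was shared. A smaller core passed the test in every population taken alone, with 231 risen features on 214 contigs (0.923%) and 30 fallen features on 26 contigs (0.120%). Full separation of the 16 sprayed from the 16 untreated libraries was seen for 147 higher features (0.587%) and 19 lower ones (0.0759%). The core rose by a median of 2.51 on the log2 scale and fell by a median of 1.20.

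**Figure D1:**
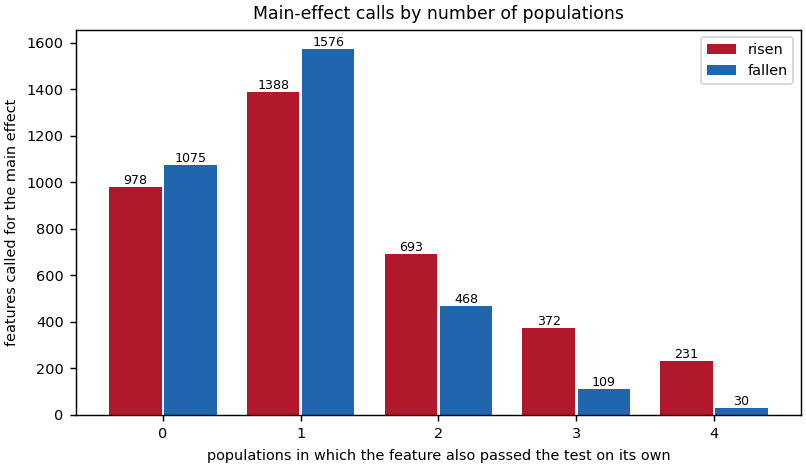
Number of features called for the main effect of spraying (y axis) against the number of populations, of 4, in which the feature also passed the test on its own (x axis), for risen (red) and fallen (blue) features. At 4 populations 231 risen and 30 fallen features remain, against 978 risen and 1075 fallen features that passed in no population alone.

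The size of the response was uneven between populations, although nearly all features called in both populations of a pair moved the same way. S1 alone had 2736 risen and 2264 fallen features (10.9% and 9.04% of those tested). S2 had 1152 and 652 (4.60% and 2.60%), R1 had 961 and 464 (3.84% and 1.85%), and R2 had 321 and 90 (1.28% and 0.359%). Over the risen core the median log2 fold change was 2.95 (S1), 2.72 (S2), 2.37 (R1) and 2.17 (R2). Over the fallen core it was -1.37 in S1, -1.21 in S2 and -0.95 in both R1 and R2. Of the 261 core features, 140 had their largest change in S1 and 20 in R2. The sprayed R2 libraries were themselves uneven on the first principal component, the axis along which libraries differed most (15.5% of variance). Replicates 1 to 4 lay at -36.0, -3.65, 6.51 and -26.5. The other sprayed libraries lay between -85.0 and -17.1, and the lowest untreated library at 14.1. The part of this spread in the low R2 counts was not tested. The core is bounded by the population with the fewest calls, and leaving out R2 gave 514 risen and 99 fallen features called in each of the other populations. Leaving out R1 gave 48 fallen ones.

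Each population was also set against a call made without it. Of the features that rose in the fit of the other 3 populations, the held-out value was above 0 for 97.6% (S1), 94.9% (S2), 87.2% (R1) and 89.6% (R2). Of those that fell, it was below 0 for 93.5% (S1), 93.2% (S2), 78.5% (R1) and 87.5% (R2). Over all tested features 48.2% to 51.8% had the sign in question. Fewer also passed the test in the held-out population. Among the risen these were 1456 of 2121 (S1), 747 of 2665 (S2), 552 of 2999 (R1) and 99 of 2983 (R2). Among the fallen they were 736 of 1605 (S1), 240 of 2517 (S2), 177 of 3011 (R1) and 19 of 2898 (R2). Over all features 4139 (S1), 1093 (S2), 847 (R1) and 125 (R2) passed in either direction. The held-out values were smaller outside S1, with medians for risen features of 1.07 (S1), 0.59 (S2), 0.47 (R1) and 0.34 (R2). A held-out population made an opposite call for 1 risen and 1 fallen feature in R1 and for none in S1, S2 or R2. Across all 25036 features the fold changes of 2 populations had Pearson correlations of 0.284 to 0.478 over the 6 pairs, which share no library; features are not independent replicates.

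**Figure D2:**
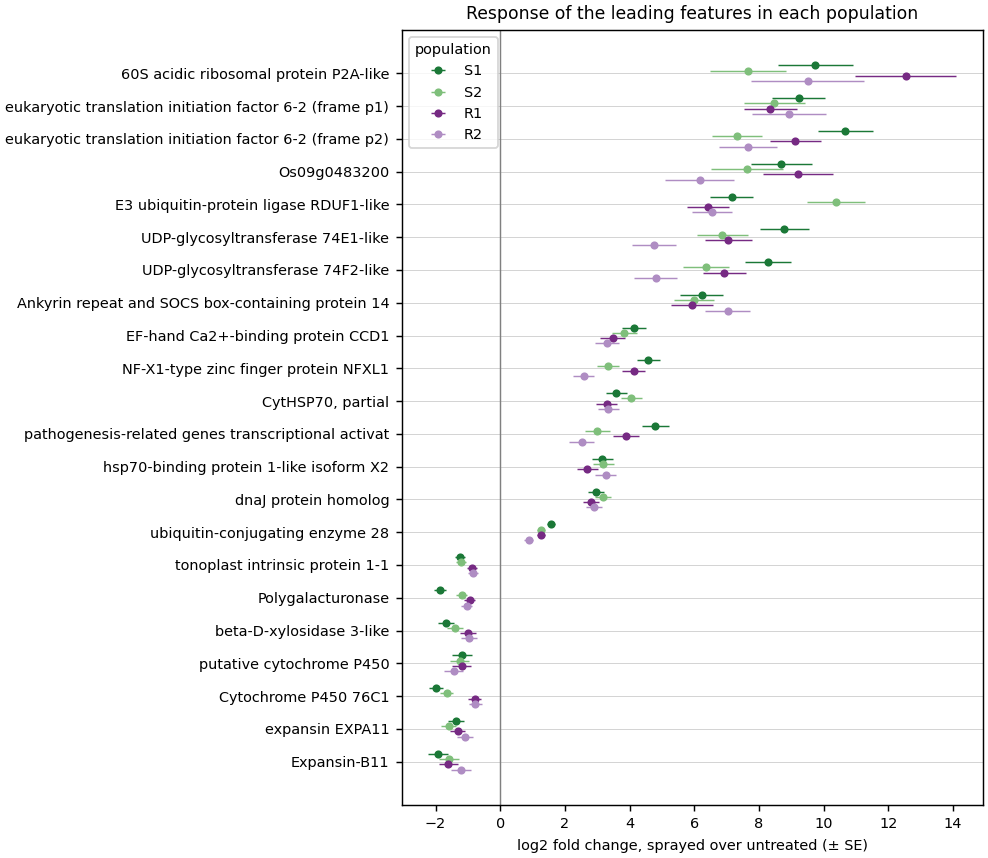
Log2 fold change of sprayed over untreated leaves (x axis, points with standard error) in S1, S2, R1 and R2 for the features with the smallest p or the largest change among the core. All 4 populations lie right of 0 for the 15 risen and left of 0 for the 7 fallen features, and R2 is lowest for UDP-glycosyltransferase 74F2-like at 4.81, against 8.27 in S1.

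Heat stress regulators rose, and chaperones mostly rose. All 9 tested features described as heat stress transcription factors, on 7 contigs, rose, with a median of 2.53. Descriptions exist only for features that the authors had listed as changed on these libraries, so that among the 3517 tested features described by name 42.0% rose and 33.6% fell, with a median of 0.12. No list count is therefore independent evidence of a direction, here or below. Heat stress transcription factor A-3 (TRINITY_DN12357_c0_g1_i2.p1) lay at 0.326, 2.99 and 9.48 CPM (lowest, median and highest library) in sprayed leaves and at 0, 0.0626 and 0.209 CPM in untreated leaves. The sprayed and untreated libraries did not overlap. With 2032 counts in sprayed and 41 in untreated libraries, its ratio was 47.6 with a 95% counting interval of 34.95 to 66.5, which covers counting error only, as do all such intervals below. Factor A-6a (TRINITY_DN136368_c0_g1_i1.p3) rose by 6.24 and A2c (TRINITY_DN1992_c2_g1_i12.p2) by 2.53, both in every population. A-6a was sparse, at 0.0514, 0.371 and 0.739 CPM in sprayed and 0, 0 and 0.0290 CPM in untreated leaves. A second A-3 contig (TRINITY_DN20065_c0_g1_i4.p1) rose by 4.09 and passed in 3 populations, while A-9-like (TRINITY_DN29225_c1_g1_i10.p1) and B-1-like (TRINITY_DN2507_c1_g2_i1.p2) rose by 1.04 and 1.53 and passed in fewer. A-4d-like (TRINITY_DN2507_c0_g1_i10.p1) rose by 2.27 in the main effect and was the 1 member without a common sign. Multiprotein-bridging factor 1c (TRINITY_DN668_c0_g1_i1.p2), a coactivator known from heat tolerance in Arabidopsis, rose by 4.35.

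Of 67 heat shock proteins and chaperones 45 rose and 16 fell, with a median of 0.74, and 17 of the risen ones rose in each population. The feature with the smallest p of all was a dnaJ protein homolog (TRINITY_DN2682_c0_g1_i4.p1); dnaJ proteins deliver clients to HSP70. Its lowest, median and highest values were 44.1, 84.4 and 148 CPM in sprayed leaves and 8.36, 10.8 and 15.99 CPM in untreated leaves. No sprayed library reached down to an untreated one. It rose by 2.96 ± 0.12 (log2, SE; adjusted p = 8.32e-16), and its population values of 2.97 (S1), 3.18 (S2), 2.81 (R1) and 2.89 (R2) were nearly level. CytHSP70 (TRINITY_DN11298_c0_g1_i1.p2), a cytosolic chaperone that binds unfolded proteins, lay at 13.5, 35.04 and 59.3 CPM in sprayed and 1.80, 2.75 and 4.55 CPM in untreated leaves. It rose by 3.57 ± 0.16, with no overlap of libraries. Hsp70-binding protein 1-like (TRINITY_DN9818_c0_g1_i9.p1), of the factors that release nucleotide from HSP70, lay at 10.3, 23.3 and 45.0 CPM in sprayed and 1.95, 2.74 and 5.44 CPM in untreated leaves and rose by 3.08 ± 0.16. Again the libraries were fully separated.

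Chaperones of several compartments belonged to the core. The 26.2 kDa mitochondrial heat shock protein (TRINITY_DN20568_c0_g1_i3.p2), a small chaperone that holds unfolded proteins, rose by 7.10, and a heat shock cognate 70 kDa protein (TRINITY_DN24999_c0_g2_i1.p1) by 6.43. Their medians were 1.04 and 1.48 CPM in sprayed leaves, and both medians were 0 CPM in untreated leaves. Heat shock protein 90 (TRINITY_DN34168_c0_g1_i1.p1), which matures signalling proteins, rose by 3.90. ClpB1 (TRINITY_DN44974_c0_g2_i4.p1), a disaggregase, rose by 3.17. Among the 16 that fell, the smallest p belonged to chaperone protein dnaJ A6, chloroplastic-like (TRINITY_DN20012_c0_g1_i7.p1), at 18.3, 23.3 and 29.2 CPM in sprayed and 25.7, 29.95 and 35.2 CPM in untreated leaves. It fell by 0.36 ± 0.05, and the libraries overlapped.

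**Figure D3:**
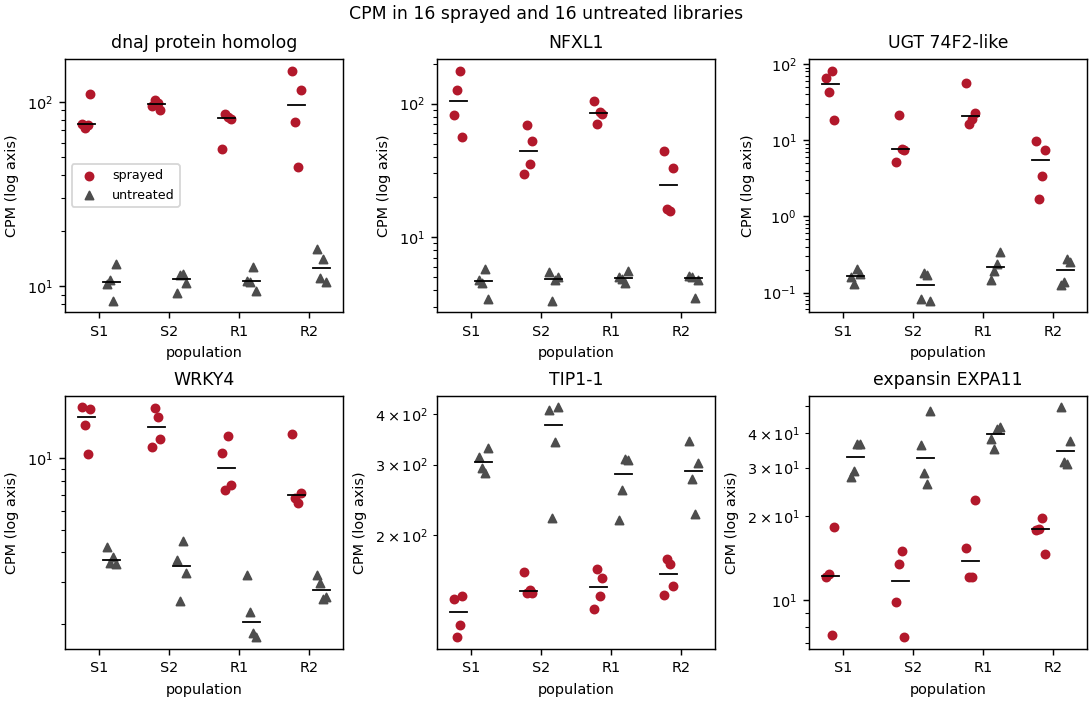
CPM of 6 features (y axes, log scale) in each of the 16 sprayed (red circles) and 16 untreated (grey triangles) libraries, by population, with a bar at each group's median. The sprayed libraries of the dnaJ homolog, NFXL1, UDP-glycosyltransferase 74F2-like and WRKY4 lie above all untreated ones, and those of TIP1-1 and EXPA11 lie below.

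Ubiquitin ligases moved both ways, and a few rose steeply. Of 142 ubiquitin and F-box features 65 rose and 46 fell, with a median of 0.18, which is close to the counts over all features described by name. Ubiquitin-conjugating enzyme 28 (TRINITY_DN1202_c0_g3_i1.p1), of the enzymes that carry activated ubiquitin, lay at 22.2, 33.9 and 44.8 CPM in sprayed and 11.5, 13.9 and 16.6 CPM in untreated leaves. It rose by 1.241 ± 0.063 with no overlap. E3 ubiquitin-protein ligase RDUF1-like (TRINITY_DN9782_c0_g1_i2.p1) had 2660 counts in sprayed and 17 in untreated libraries, a ratio of 150.2 (95% counting interval 93.7 to 258). Polyubiquitin-A (TRINITY_DN621_c1_g1_i18.p1) rose by 1.70 and NPL4-like protein (TRINITY_DN2477_c0_g1_i3.p1), a partner of the CDC48 segregase, by 0.80, both in every population. Of 9 proteasome subunits 6 rose, with a median of 0.19. Without S1 none of the 9 was called with edgeR, 4 were higher at an unadjusted p under 0.05, and their median was 0.15. A probable F-box protein, At5g04010 (TRINITY_DN139345_c0_g1_i1.p1), had 217 counts in sprayed and 831 in untreated libraries and fell by 3.03 ± 0.36. The 4 sprayed S1 libraries had 0.0257, 0, 0 and 0 CPM, so the S1 part of this mean rests on values near 0. Over the processing settings the log2 change of this feature ran from -3.645 to -1.80.

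Translation factors, tRNA ligases and RNA helicases mostly rose, and ribosomal proteins of organelles mostly fell. Of 41 translation factors 35 rose and 4 fell (21 and 3 without S1), with a median of 0.36. The factor with the smallest p was eukaryotic translation initiation factor 6-2 (TRINITY_DN2098_c0_g1_i46.p2); eIF6 keeps the large ribosomal subunit from joining the small one. This reading frame had 8722 counts in sprayed and 14 in untreated libraries, a ratio of 598 (95% counting interval 356 to 1095), and TRINITY_DN2098_c0_g1_i46.p1 on the same contig had 4308 counts in sprayed and 7 in untreated libraries. A second contig of the same description (TRINITY_DN2567_c0_g1_i5.p1) rose by 0.31. Elongation factor 2 (TRINITY_DN1168_c0_g1_i2.p1), which moves the ribosome along the message, rose by 3.31. Peptide chain release factor subunit 1 (TRINITY_DN2267_c0_g1_i6.p1), which ends translation at stop codons, rose by 3.16. Elongation factor Tu, chloroplastic (TRINITY_DN18213_c0_g2_i1.p1) lay at 275, 377 and 474 CPM in sprayed and 433, 518 and 552 CPM in untreated leaves and fell by 0.45 ± 0.04.

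The steepest rise among all core features was that of a 60S acidic ribosomal protein P2A-like feature (TRINITY_DN383_c0_g1_i4.p2), of the stalk proteins that recruit elongation factors. It lay at 0.278, 14.99 and 59.6 CPM in sprayed leaves and at 0, 0 and 0.160 CPM in untreated leaves, with 9648 counts in sprayed and 10 in untreated libraries and a ratio of 926 (95% counting interval 504 to 1932). The libraries did not overlap. Os09g0483200 (TRINITY_DN662_c0_g2_i2.p1), described by its rice locus, had 8078 counts in sprayed and 21 in untreated libraries, a ratio of 369 (95% counting interval 241 to 597). Threonine--tRNA ligase, mitochondrial 1 (TRINITY_DN4789_c0_g1_i1.p1), which loads threonine onto its tRNA, had 10137 counts in sprayed and 37 in untreated libraries, a ratio of 263 (95% counting interval 191 to 374). Of 27 tRNA ligases 20 rose and 5 fell, with a median of 0.49. Of 55 splicing factors and RNA helicases 44 rose and 4 fell (24 and 0 without S1), with a median of 0.42. Other ribosomal proteins moved both ways or fell: with no organelle named, 11 of 63 rose and 11 fell (13 and 3 with library totals alone), and for organelles 4 of 24 rose and 18 fell, with a median of -0.27. With library totals alone 5 and 8 of these 24 rose and fell.

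The WRKY list mostly rose, and single regulators outside it rose too. NFXL1 (TRINITY_DN1664_c0_g1_i8.p1), a zinc finger protein of the NF-X1 type and a regulator of stress responses in Arabidopsis, lay at 15.8, 62.8 and 177 CPM in sprayed leaves and 3.33, 4.81 and 5.70 CPM in untreated leaves. It rose by 3.65 ± 0.17 with no overlap, by 4.58 (S1), 3.33 (S2), 4.12 (R1) and 2.57 (R2). Of 19 WRKY factors, which regulate defence genes, 16 rose and 1 fell, with a median of 1.87, and 6 rose in each population. WRKY4 (TRINITY_DN1140_c0_g1_i8.p1) lay at 6.49, 11.6 and 16.4 CPM in sprayed and 1.75, 3.22 and 4.48 CPM in untreated leaves and rose by 1.87 ± 0.11. The libraries did not overlap, and the values of 1.89 (S1), 1.96 (S2), 2.07 (R1) and 1.54 (R2) were close. WRKY62 (TRINITY_DN22201_c0_g4_i1.p1) rose by 5.86.

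Of 19 NAC factors, many of which act in stress and senescence, 16 rose and 2 fell, with a median of 0.69. A NAC transcription factor (TRINITY_DN767_c1_g1_i1.p1) had 729 counts in sprayed and 58 in untreated libraries and rose by 3.92 ± 0.29. MYB transcription factor TaMYB1 (TRINITY_DN34189_c0_g1_i5.p1) lay at 4.19, 6.61 and 10.5 CPM in sprayed and 0.732, 1.44 and 2.52 CPM in untreated leaves, without overlap, and rose by 2.12 ± 0.13. Its list was mixed, with 8 of 15 MYB factors risen and 6 fallen. Of 11 AP2/ERF features 9 rose and 2 fell; 1 of them is a release factor caught by its name. RAP2-3 (TRINITY_DN2152_c0_g1_i2.p1), an ethylene response factor linked to low oxygen in Arabidopsis, lay at 11.15, 16.7 and 24.6 CPM in sprayed and 4.87, 8.93 and 11.07 CPM in untreated leaves and rose by 0.97 ± 0.11. Pathogenesis-related genes transcriptional activator PTI6-like (TRINITY_DN108435_c0_g1_i14.p1) lay at 0.977, 7.91 and 22.3 CPM in sprayed and 0.388, 0.620 and 0.865 CPM in untreated leaves. It rose by 3.55 ± 0.20, and the libraries did not overlap. Zinc finger proteins rose in 26 and fell in 12 of 44 cases.

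Calcium and hormone features rose in part. EF-hand Ca2+-binding protein CCD1 (TRINITY_DN26810_c0_g1_i8.p2) lay at 2.60, 7.99 and 12.4 CPM in sprayed and 0.299, 0.619 and 0.860 CPM in untreated leaves, with no overlap, and rose by 3.68 ± 0.19. Calcium-transporting ATPase 4 of the endoplasmic reticulum (TRINITY_DN905_c1_g1_i6.p1), which pumps calcium out of the cytosol, lay at 25.5, 49.4 and 78.9 CPM in sprayed and 16.8, 24.2 and 33.9 CPM in untreated leaves and rose by 1.13 ± 0.09. Of 55 calcium features 30 rose and 17 fell, and of 13 MAP kinase features 9 rose and 1 fell. Of 12 jasmonate features 8 rose and 1 fell. The risen ones include TIFY 11b (TRINITY_DN1298_c0_g1_i8.p2) and TIFY 9-like (TRINITY_DN90494_c0_g1_i4.p1), of the family that represses jasmonate signalling, with log2 changes of 1.47 and 2.67. Of 18 abscisic acid features 11 rose and 5 fell. The dioxygenase NCED5 (TRINITY_DN31190_c1_g1_i19.p2), which cuts the carotenoid precursor of abscisic acid, had 348 counts in sprayed and 6 in untreated libraries, a ratio of 55.7 (95% counting interval 25.3 to 153).

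Immune receptors moved both ways. Of 36 NLR receptors 10 rose and 12 fell, and of 85 receptor-like kinases 25 rose and 31 fell; with library totals alone 13 and 6 NLR receptors and 27 and 18 kinases rose and fell. Receptor-like protein kinase HERK 1 (TRINITY_DN3957_c0_g1_i17.p1) rose by 0.85 ± 0.09 in the main effect and passed the test in every population. Pathogenesis-related proteins rose in 11 and fell in 6 of 22 cases. Glucan endo-1,3-beta-glucosidase 14 (TRINITY_DN10141_c0_g1_i14.p1), named for enzymes that cut callose-type glucans, lay at 6.30, 9.47 and 16.3 CPM in sprayed and 9.38, 16.6 and 21.7 CPM in untreated leaves and fell by 0.74 ± 0.08.

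Glycosyltransferases and glutathione transferases mostly rose, and cytochromes P450 moved both ways. Of 45 glycosyltransferases 25 rose and 5 fell, with a median of 0.91, and 8 rose in each population. The list is a match of words and not only of conjugating enzymes. Probable xyloglucan glycosyltransferase 9 (TRINITY_DN6679_c0_g1_i15.p1), not named for conjugating small molecules, is among the 8, and its value of 0.91 is the list median. UDP-glycosyltransferase 74F2-like (TRINITY_DN17_c0_g3_i1.p1), named for enzymes that attach glucose to small acids, lay at 1.70, 17.3 and 82.1 CPM in sprayed and 0.0782, 0.171 and 0.345 CPM in untreated leaves. With 14207 counts in sprayed and 96 in untreated libraries, its ratio was 142 (95% counting interval 116 to 176), and the libraries did not overlap. UDP-glycosyltransferase 74E1-like (TRINITY_DN5501_c0_g1_i2.p1) had 6988 counts in sprayed and 41 in untreated libraries, a ratio of 164 (95% counting interval 121 to 228). Of 16 glutathione transferases 11 rose and 1 fell, with a median of 1.28. Probable glutathione S-transferase parC (TRINITY_DN5305_c0_g1_i4.p1) had 1759 counts in sprayed and 54 in untreated libraries and rose by 4.77 ± 0.44. GSTU6 (TRINITY_DN2663_c0_g2_i2.p1) rose by 3.40, and both passed the test in each population.

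Cytochromes P450 split, with 13 of 35 risen and 11 fallen, a median of -0.11, and 2 risen and 3 fallen in each population. Of these 3 fallen features 2 are frames of the same contig (TRINITY_DN70532_c0_g1_i3). The shares of 37.1% risen and 31.4% fallen are near the 42.0% and 33.6% of all features described by name. Without S1 the split was 8 risen and 11 fallen. P450 709B1-like (TRINITY_DN16815_c1_g1_i18.p1) lay at 2.62, 6.15 and 17.2 CPM in sprayed and 0.0337, 0.222 and 1.77 CPM in untreated leaves and rose by 4.36 ± 0.28. Every sprayed library was above every untreated one. P450 76C1 (TRINITY_DN3630_c0_g1_i3.p1), named for oxidases of monoterpenols, lay at 3.23, 6.18 and 12.8 CPM in sprayed and 9.07, 15.5 and 18.7 CPM in untreated leaves and fell by 1.31 ± 0.10. Of 43 ABC transporters 25 rose and 10 fell, with a median of 0.81. ABC transporter E family member 2 (TRINITY_DN5032_c0_g1_i13.p1), named for a soluble group that recycles ribosomes rather than carrying solutes, lay at 0.760, 6.45 and 21.9 CPM in sprayed and 0.0298, 0.324 and 0.629 CPM in untreated leaves. It rose by 4.04 ± 0.28, and the libraries did not overlap. DETOXIFICATION efflux carriers rose in 5 and fell in 4 of 13 cases, with a median of -0.22.

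**Figure D4:**
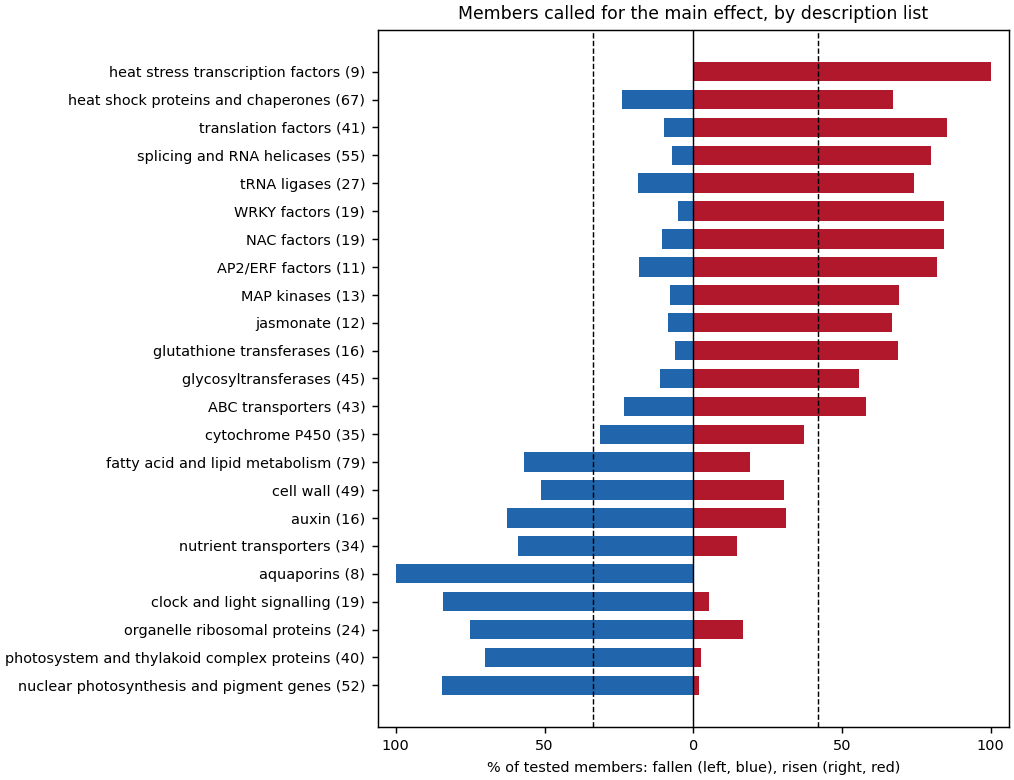
Percentage of tested members that fell (left, blue) or rose (right, red) in the main effect of spraying, for 23 lists of features drawn from the descriptions, with the number of tested members in brackets; dashed lines mark 33.6% fallen and 42.0% risen among all features described by name. Aquaporins, with 8 of 8 fallen, and heat stress transcription factors, with 9 of 9 risen, stand at the ends.

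Water channels fell. All 8 tested features that the word list matched as aquaporins fell, all with 1 sign in every population, with a median of -0.71 (7 fell without S1 and 6 with library totals alone). Tonoplast intrinsic protein 1-1 (TRINITY_DN1064_c1_g1_i1.p1) lets water through the vacuole membrane. It lay at 112, 144 and 175 CPM in sprayed and 219, 305 and 416 CPM in untreated leaves. The groups did not overlap, and it fell by 1.05 ± 0.08. PIP2-5 (TRINITY_DN1194_c0_g2_i1.p1), a water channel of the plasma membrane, fell by 0.79 and the vacuolar proton pump (TRINITY_DN1072_c0_g2_i3.p3), which is no aquaporin, by 0.75, both in each population. PIP1 protein (TRINITY_DN749_c0_g1_i3.p1), by its name also a water channel, fell by 0.77 in each population's test and the main effect. The list counted 2 members fallen in each population, fewer than these named channels, so its words do not catch every water channel.

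Of 49 cell wall features 15 rose and 25 fell, with a median of -0.33; with library totals alone 18 rose and 18 fell. Expansin EXPA11 (TRINITY_DN2746_c0_g1_i8.p1), of the proteins that loosen walls of growing cells, lay at 7.34, 14.1 and 22.9 CPM in sprayed and 26.2, 36.4 and 49.5 CPM in untreated leaves and fell by 1.35 ± 0.12. A Polygalacturonase (TRINITY_DN7008_c0_g1_i11.p1), which cuts pectin, lay at 2.34, 5.998 and 7.95 CPM in sprayed and 11.2, 13.2 and 16.9 CPM in untreated leaves and fell by 1.27 ± 0.09. Neither feature had overlapping groups. Expansin-B11 (TRINITY_DN4162_c0_g1_i17.p3) fell by 1.59 ± 0.15 and beta-D-xylosidase 3-like (TRINITY_DN5725_c0_g1_i3.p1), which trims xylans, by 1.27 ± 0.12, with overlap. A probable xyloglucan endotransglucosylase/hydrolase (TRINITY_DN7234_c0_g1_i2.p1), which cuts and rejoins xyloglucan, rose instead, by 1.38 ± 0.12. Of 16 auxin features 5 rose and 10 fell. Auxin-induced protein 15A-like (TRINITY_DN13607_c0_g1_i1.p3) had 334 counts in sprayed and 939 in untreated libraries and fell by 1.61 ± 0.22. Nutrient transporters rose in 5 and fell in 20 of 34 cases, and in 8 and 8 with library totals alone.

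Photosynthesis features fell widely but by small amounts, and in lower numbers without S1. Of 52 nuclear photosynthesis and pigment features 1 rose and 44 fell, with a median of -0.33 (1 and 21 without S1, 1 and 22 with library totals alone). A chlorophyll a-b binding protein of LHCII (TRINITY_DN697_c0_g2_i8.p1), an antenna protein, lay at 158, 205 and 252 CPM in sprayed and 194, 333 and 478 CPM in untreated leaves. The groups overlapped, and it fell by 0.70 ± 0.09. Of 40 photosystem and thylakoid features 1 rose and 28 fell, against 0 and 4 without S1 and 2 and 6 with library totals alone. Of 19 clock and light features 1 rose and 16 fell, with a median of -0.33. Phototropin-like protein (TRINITY_DN329_c0_g1_i35.p1), a blue-light receptor, fell by 0.55 ± 0.05. PRR95 (TRINITY_DN1306_c0_g1_i3.p1), of the pseudo-response regulators of the circadian clock, lay at 11.2, 13.1 and 42.7 CPM in sprayed and 20.9, 28.0 and 50.0 CPM in untreated leaves and fell by 1.00 ± 0.12. CONSTANS-LIKE 13 (TRINITY_DN19892_c0_g1_i19.p4) was the 1 clock and light feature that rose, by 1.04 ± 0.08, with no overlap.

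Markers of leaf cell types moved beside these lists. Of 24 mesophyll markers, which share members with the photosynthesis lists, none rose and 19 fell with edgeR, with a median of -0.60; at an unadjusted p under 0.05 these counts were 0 and 22. Of 22 epidermis and cuticle markers 4 rose and 12 fell, and of 4 vascular markers 2 rose and 1 fell. Among 24 markers of dividing cells 8 rose and 3 fell, although their median was -0.22. The medians of these 24 had no common sign, with 0.996 (S1), 0.178 (S2), -0.564 (R1) and -0.243 (R2). Without S1, 6 rose and 2 fell, and at an unadjusted p under 0.05 these counts were 7 and 9. The 1 guard cell feature (TRINITY_DN17047_c0_g1_i12.p1) rose by 0.23 ± 0.07, with 0.54 (S1), 0.16 (S2), 0.09 (R1) and 0.14 (R2). Without S1 it was not called, with a log2 change of 0.13. Its share of counts had a mean of 0.00122% in sprayed and 0.000928% in untreated libraries (adjusted p = 0.0016, permutation test). A list of foreign RNA, mostly named for retrotransposons, held a mean of 0.0169% of counts in sprayed and 0.0184% in untreated libraries (adjusted p = 0.0061, permutation test). Of its 23 members 10 fell, against 1 with library totals alone and 2 of 22 without S1. The part of cell composition in any result was not tested.

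Both tested features with a carboxylase of acetyl-CoA in their description changed little. Acetyl-coenzyme A carboxylase (TRINITY_DN1720_c0_g2_i1.p1) lay at 173, 221 and 274 CPM in sprayed and 215, 266 and 355 CPM in untreated leaves. It fell by 0.31 ± 0.06 (adjusted p = 0.000351), and the groups overlapped. Cytosolic acetyl-CoA carboxylase 2 (TRINITY_DN1720_c0_g1_i7.p1) lay at 153, 211 and 245 CPM in sprayed and 190, 248 and 334 CPM in untreated leaves and fell by 0.28 ± 0.06 (adjusted p = 0.00117). All 4 population values of both were below 0, between -0.40 and -0.18, but neither passed the test in any population alone, and neither was called with library totals alone. The second is described as cytosolic, and whether the first encodes the plastid form is not given by its description. The response of the plastid form was therefore not identified. Of 79 fatty acid and lipid features 15 rose and 45 fell, with a median of -0.27 (17 and 16 with library totals alone). Probable 1-acylglycerol-3-phosphate O-acyltransferase (TRINITY_DN21066_c0_g1_i28.p1), which builds phosphatidic acid, rose by 1.242 ± 0.085. It lay at 6.43, 8.72 and 13.5 CPM in sprayed and 2.32, 3.83 and 5.23 CPM in untreated leaves, with no overlap. A GDSL-motif lipase/hydrolase-like feature (TRINITY_DN26058_c0_g1_i2.p1) had 354 counts in sprayed and 1284 in untreated libraries and fell by 1.96 ± 0.24.

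Other lists were mixed or small. Peroxidases and redox features rose in 9 and fell in 19 of 40 cases (11 and 8 with library totals alone), and peroxidase 64 (TRINITY_DN490_c1_g1_i5.p1) fell by 1.55 ± 0.19. Phenylpropanoid features rose in 19 and fell in 8 of 38 cases, and vesicle traffic features in 16 and 3 of 27. Histone, cell cycle and cytoskeleton features rose in 20 and fell in 15 of 57 cases with a median of -0.18, amino acid features in 15 and 18 of 39 (17 and 8 with library totals alone), and sugar and starch features in 13 and 20 of 48 (16 and 7). Without S1 the side with more calls turned for 3 of 57 lists, which were P450, histone and amino acid features. Pentatricopeptide repeat proteins, which process organelle RNA, rose in 33 and fell in 21 of 63 cases. Features of gibberellin, cytokinin and brassinosteroid rose in 3 and fell in 7 of 13, of bZIP factors 4 rose and 6 fell of 16 (5 and 2 with library totals alone), and of homeobox factors 1 rose and 6 fell of 7 (1 and 1). Ethylene, autophagy and bHLH features had 3 and 2, 2 and 2, and 3 and 3 risen and fallen members; with library totals alone autophagy had 3 and 1 and bHLH 4 and 2. Respiration features rose in 9 and fell in 5 of 20 cases.

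The test of a difference in response among the populations called 110 of 25036 features (0.439%, with 3071 at an unadjusted p under 0.05). This count depended on the setting, with 768 features by DESeq2, 566 with library totals alone and 20 with the replicate number as a block. Of the 110, 105 were also called for the main effect and 73 were shared. In 104 of the 110 the change was largest in S1, and their median absolute log2 fold change was 1.25 (S1), 0.60 (S2), 0.50 (R1) and 0.31 (R2). Without S1 the same edgeR test called none of 23871 tested features, with 1560 at an unadjusted p under 0.05. With no difference at all, about 1 in 20 would fall under that p. Sulfite exporter TauE/SafE family protein 4 (TRINITY_DN3389_c0_g1_i17.p1) had 2.13 (S1), 0.29 (S2), 1.32 (R1) and 0.42 (R2) (adjusted p of the difference = 0.000991). NMD3 (TRINITY_DN16782_c0_g1_i1.p1), which exports the large ribosomal subunit from the nucleus, had 1.57 (S1), 0.65 (S2), 1.27 (R1) and 0.25 (R2) (adjusted p = 0.00256). The large subunit of 3-isopropylmalate dehydratase (TRINITY_DN311_c0_g1_i24.p1), an enzyme of leucine synthesis, had 2.23 (S1), 0.65 (S2), 1.73 (R1) and 0.51 (R2) (adjusted p = 0.00367). In these 3 cases the resistant population R1 lay above the susceptible population S2, and UV-B-induced protein At3g17800 (TRINITY_DN24_c0_g1_i5.p1) had the other order, with 0.42 in S2 and -0.01 in R1. By absolute change, 57 of the 110 features had S1 over S2 over both R populations, and 47 had S1 over R1 over both S2 and R2. The count rests on single libraries, with 35 features without sprayed S1 replicate 2 and 200 without untreated S2 replicate 2.

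**Figure D5:**
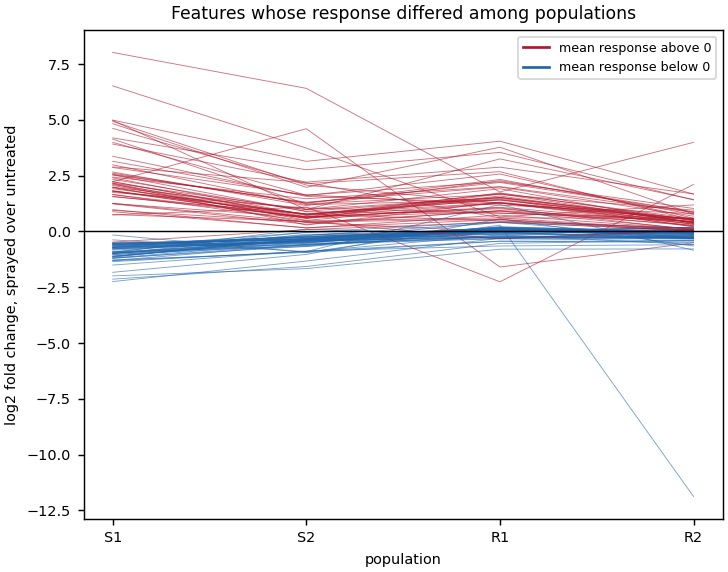
Log2 fold change of sprayed over untreated leaves (y axis) in S1, S2, R1 and R2 (x axis) for the 110 features whose response differed among the populations, with 1 line per feature, red for a mean response above 0 and blue for one below. Most lines are farthest from 0 in S1, and the median distance is 1.25 in S1 and 0.31 in R2.

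Opposite calls were few, and only a feature called in both populations of a pair could give one. Such features numbered from 281 (R1 and R2) to 1468 (S1 and S2). Over all tested features the populations of a pair had the same sign in 61.7% (S2 and R1) to 70.3% (S1 and S2). Called in opposite directions in 2 populations were 5 features, none of them called for the main effect, and 2 of these have a name. Protein disulfide isomerase family protein 4-1 (TRINITY_DN2516_c0_g1_i1.p1) had 0.54 in S1 and -0.53 in R1, and Lr21 (TRINITY_DN13941_c0_g1_i1.p1), named for a wheat rust resistance protein, had -1.91 in S1 and 2.58 in R1.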

How the data were processed

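The authors deposited a table of raw counts of 39590 open reading frames in 32 columns, each of which matched a labelled library, and a table of their own log2 fold changes and adjusted p-values with descriptions; of the second, only the descriptions were used here. Tools named in the submitters' processing notes are STAR 2.5.2b, FastQC 0.11.5, R 3.6.1 and DESeq2 1.24.0; the assembly, counting settings and their use of strand are not given in the sources used here. RNA was ribosome-depleted total RNA, per the labels' protocols, so plastid messages are counted.

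Counts were analysed with edgeR 4.0.16, limma 3.58.1 and DESeq2 1.42.0 in R 4.3.3. Features were filtered with filterByExpr by the 8 groups, scaled with TMM factors and fitted with a quasi-likelihood model of 8 group means (24 residual degrees of freedom, biological coefficient of variation 0.389). The main effect is the mean of the 4 population contrasts, and the difference among populations is an F test with 3 degrees of freedom. Adjusted p-values follow Benjamini and Hochberg, over the 25036 tested features (on 20677 contigs) of a contrast. CPM are counts scaled to a common size of the TMM-scaled library. Count ratios are adjusted for scaled depth. P-values describe these 4 populations and pools of plants.

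Descriptions exist for 7967 features, of which 7697 were tested. The 55 lists, 6 of them for cell types and foreign RNA, are word patterns in them, and 2 lists were added later. Members and lists were chosen with earlier results of these data known. Named features are the 12 smallest p in each direction among those changed by a log2 value of 1 or more that passed in every population (7 fallen ones qualified); the 4 largest changes at a mean CPM of 1 or more; the smallest p of each list in each direction; the 4 smallest p for the difference among populations; features with opposite calls; and acetyl-CoA carboxylases. Other core features were named as examples after their values were seen, as were WRKY62, TIFY 9-like and the eIF6-2 contig that rose by 0.31. Features can share a contig, and near-identical copies may share reads.

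Libraries were checked for duplicates, of which none were found. Replicate numbers did not pair libraries across treatments, as given with the alternatives in the closing section. On simulated counts of 24474 features, 98 were changed 2-fold and 99 were changed 4-fold, equally in every population. Of these, 65.3% of 2-fold and 88.9% of 4-fold changes were called for the main effect, and 5.59% of calls were false. In the data 27.6% of features were called and the populations responded unequally, so these simulated shares need not hold for the data.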

Additional observations from a re-analysis of the deposited data

Results flagged for a closer look

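Among the core features of smallest p and largest change, 164 sets of 4 libraries were read for a library apart from the rest of its set, and 11 were found (6.71%), where chance alone gives about 1 in 20. For the dnaJ protein homolog (TRINITY_DN2682_c0_g1_i4.p1) sprayed S1 replicate 4 stood at 111 CPM. Hsp70-binding protein 1-like (TRINITY_DN9818_c0_g1_i9.p1) had 5.44 CPM in untreated R1 replicate 1, and ASB14 (TRINITY_DN14560_c0_g1_i1.p1), an ankyrin repeat protein, had 0.443 CPM in untreated S2 replicate 4. UDP-glycosyltransferase 74F2-like (TRINITY_DN17_c0_g3_i1.p1) had 21.1 CPM in sprayed S2 replicate 2 and 55.8 CPM in sprayed R1 replicate 1, each above its set. The eIF6-2 frame TRINITY_DN2098_c0_g1_i46.p1 was lowest in sprayed R1 replicate 3, at 7.56 CPM. Polygalacturonase (TRINITY_DN7008_c0_g1_i11.p1) had 16.9 CPM in untreated S2 replicate 4 and 11.2 CPM in untreated R2 replicate 4. Tonoplast intrinsic protein 1-1 (TRINITY_DN1064_c1_g1_i1.p1) had 162 CPM in sprayed S2 replicate 1. P450 76C1 (TRINITY_DN3630_c0_g1_i3.p1) had 13.1 CPM in untreated S1 replicate 3 and 9.07 CPM in untreated S2 replicate 2, both lowest of their sets.

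The response to spraying differed among the populations for 9 of the features chosen by the naming rule. Beside NMD3 (adjusted p = 0.00256), TauE/SafE protein 4 (0.000991) and 3-isopropylmalate dehydratase (0.00367), these were UV-B-induced protein At3g17800 (TRINITY_DN24_c0_g1_i5.p1; adjusted p = 0.00243), with 1.26 (S1), 0.42 (S2), -0.01 (R1) and 0.20 (R2), and Cyclin-T1-1 (TRINITY_DN793_c0_g1_i13.p1; adjusted p = 0.0340), with 2.44 (S1), 1.47 (S2), 2.01 (R1) and 0.85 (R2). P450 76C1 (adjusted p = 0.0472), elongation factor Tu, chloroplastic (adjusted p = 0.0335), a MYB-related protein (TRINITY_DN492_c0_g1_i30.p2; adjusted p = 0.0424) and Glucan endo-1,3-beta-glucosidase 14 (adjusted p = 0.0418) fell and had their largest change in S1. Named further below, elongation factor-like GTPase 1 (TRINITY_DN8742_c0_g1_i3.p1) also differed (adjusted p = 0.0137), with 4.19 (S1), 2.76 (S2), 3.54 (R1) and 1.41 (R2), and so did delta(1)-pyrroline-5-carboxylate synthetase (TRINITY_DN4232_c0_g1_i24.p3; adjusted p = 0.0114), with 2.66 (S1), 1.16 (S2), 2.27 (R1) and 0.88 (R2). These p-values are from the same F test over all tested features.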

How the results depend on the processing

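The main effect called 6920 features, and stayed within 1.5 times of that with RLE scaling (6937), no filter (6761), DESeq2 (7475) and limma-voom (6927). With the populations as replicates 2705 features were called, 1717 risen and 988 fallen, and 1716 and 988 of them were shared. Past an absolute log2 fold change of 1 the counts were 1507, 1206 and 301, with 1122 and 279 shared, since fewer can pass. Without S1 they were 3850, 2202 and 1648, with 1592 shared fallen features; 3 populations can share a sign more easily than 4. With library totals alone 6118 rose and 1209 fell, 1039 of the fallen were shared, 15 fell in each population, 566 differed among populations, and 84.5% of held-out risen features kept their sign, against 91.8%. The cause of these shifts was not tested beyond the fewer features or libraries that each setting leaves. The risen core of 231 was 121 with limma-voom and 514 without R2. The fallen core of 30 was 68 with DESeq2, 10 past an absolute log2 fold change of 1, 48 without R1 and 99 without R2. The 110 features that differed among populations were 170 at a CPM of at least 1 in 16 libraries, 768 with DESeq2, 66 past an absolute log2 fold change of 1, 237 without S2, 13 without R2 and 0 without S1.

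Leaving out 1 library gave 6535 to 7294 features for the main effect (3370 to 3894 risen, 3021 to 3400 fallen), 2854 to 3425 shared risen and 2438 to 2869 shared fallen ones. The risen core ran from 148, without sprayed R2 replicate 1, to 261, and the fallen core from 17, without sprayed R2 replicate 1 or 4, to 40. The difference among populations ran from 35 to 200 and moved by over 1.5 times without each of 13 libraries. These were sprayed S1 replicates 2 (35), 3 (41) and 4 (176), R1 replicates 2 (69) and 3 (63) and R2 replicate 2 (52), and untreated S1 replicates 1 (53) and 4 (49), S2 replicate 2 (200), R1 replicates 1 (166) and 4 (72) and R2 replicates 2 (66) and 3 (47). With the replicate number as a block the main effect called 6160 features, 154 rose and 24 fell in each population, and 20 differed among populations. Same-numbered libraries had correlations of -0.08 to 0.09, and 1 of 16 correlated best with its own number, so the numbers are not read as pairs. Of 115 named features 89 were called in every setting, 26 lost the call in at least 1, and none reversed. The list counts without S1, and both lists below, were chosen after seeing the data. Depth limits features near 0 in untreated leaves, where ratios rest on few counts.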

Other observations

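Features that assemble ribosomes rose almost without exception, unlike the ribosomal proteins themselves. The list was drawn from the descriptions after values were seen, so it is a description. Of 48 such features on 44 contigs, 47 rose and none fell with edgeR (47 and 0 at an unadjusted p under 0.05), with a median of 0.91, against 0.12 over all features described by name. The medians were 1.56 (S1), 0.67 (S2), 0.72 (R1) and 0.43 (R2), and 44 were shared. Without S1, 32 of 47 rose with a median of 0.70, and with library totals alone 47 of 48 rose. Elongation factor-like GTPase 1 (TRINITY_DN8742_c0_g1_i3.p1) and SBDS (TRINITY_DN2912_c0_g1_i5.p1), which in yeast and mammals together release eIF6 from the large ribosomal subunit, rose by 2.98 and 1.65, both in every population; the response of the GTPase differed among the populations. Nucleolar protein 56-like (TRINITY_DN7158_c0_g2_i1.p1), a core protein of the particles that methylate ribosomal RNA, rose by 2.47.

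Features with mitochondria in their description also rose more often than they fell. Of 145 on 136 contigs, a list likewise drawn after values were seen, 93 rose and 20 fell, with a median of 0.41 (64 and 9 of 141 without S1, 109 and 7 with library totals alone). Both alternative oxidases named in it, ubiquinol oxidase 1b (TRINITY_DN6054_c0_g1_i6.p2) and oxidase 1d2 (TRINITY_DN2321_c1_g1_i1.p2), which pass electrons to oxygen without pumping protons, rose, by 5.04 and 4.99. External NADH-ubiquinone oxidoreductase 1 (TRINITY_DN8472_c0_g3_i2.p1), another bypass enzyme, lay at 0.678, 4.20 and 16.1 CPM in sprayed and 0.0998, 0.210 and 0.732 CPM in untreated leaves and rose by 4.41 ± 0.31. The groups overlapped at their edge. A related feature, B1 (TRINITY_DN8472_c0_g1_i5.p1), fell by 0.36. The mitochondrial import subunit TIM14-3-like (TRINITY_DN5007_c0_g1_i5.p2) rose by 2.47 and the mitochondrial heat shock 70 kDa protein TRINITY_DN1230_c0_g1_i1.p1 by 2.34, both in each population. Delta(1)-pyrroline-5-carboxylate synthetase (TRINITY_DN4232_c0_g1_i24.p3), the entry enzyme of proline synthesis, which is not in these lists, rose by 1.74, with a response that differed among the populations, and lay at 9.69, 24.4 and 59.2 CPM in sprayed and 5.54, 7.36 and 8.97 CPM in untreated leaves, without overlap.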
